A study of Homo sapiens with 3 samples.

Results

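The inhibitor of DNA binding (ID) genes and the bone morphogenetic protein (BMP) to SMAD pathway were followed through 10 genes, namely ID1, ID2, ID3, ID4, SMAD1, SMAD6, SMAD7, BMP4, BMPR2 and BAMBI. They were taken by symbol from a deposited table of 22464 Ensembl genes, and all 10 were found. They had been picked for their values in these same libraries, so every value below is a description. The study used SK-Hep-1, an established human line from a liver adenocarcinoma, as stable lines made by lentiviral infection. The sh1089-1 and sh1089-2 lines each carry a different short hairpin RNA against the long noncoding RNA LINC01089, and the shNC line carries the negative control hairpin. Each group is 1 library of enriched mRNA, whether a line is a clone or a pool is not given in the sources used here, and LINC01089 itself was not analysed here.

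BMPs are secreted ligands that bring type I and type II receptor kinases together. The receptors phosphorylate SMAD1, SMAD5 and SMAD9, which join SMAD4, enter the nucleus and switch on target genes, the ID genes among the quickest of them. ID proteins have a helix-loop-helix dimerisation region but no DNA-binding region, and by pairing with E proteins such as TCF3 they keep those factors off DNA. SMAD6 and SMAD7 are inhibitory SMADs that are targets and brakes of the pathway. In endothelial cells the ID genes are a standard readout of BMP signalling, and in hepatocytes the same pathway drives the iron hormone gene HAMP.

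ID1, ID2 and ID3 were lower in both hairpin libraries than in shNC, and lower again in sh1089-2 than in sh1089-1. The ID2 difference in sh1089-1 was under 1.5-fold. The type II receptor gene BMPR2 was also lower in both, with the larger difference in sh1089-1. The pseudoreceptor gene BAMBI was higher in both by under 1.5-fold. The ligand gene BMP4 and the signal-carrying SMAD1 had somewhat higher values in the hairpin libraries, mostly within counting error, and ID4 was listed at 0 in all 3 libraries.

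The libraries held 9528312 reads for sh1089-1, 8359832 for sh1089-2 and 10698480 for shNC, as worked out from the values. A gene was tested at a mean of at least 1 FPKM (fragment counts divided by the length of the gene and the depth of the library), which 11198 genes and 8 of the 10 members reached. It was called higher or lower at a difference of at least 1.5-fold in log2(FPKM + 1), a scale that understates the change of low genes. Ratios are of plain FPKM, with 95% Clopper-Pearson intervals on the reads, which allow for counting error alone. As no group has a second library, no replicate spread and no p-value can be given. Of the markers checked against the labelled liver tissue, only SERPINA1 of 6 listed hepatocyte genes and only ENG of 9 listed endothelial genes reached 1 FPKM in every library, against 7 of 10 mesenchymal genes and 1 of 7 leukocyte genes. The hepatocyte genes APOA1, TTR and FGB were listed at 0, and the hepatocyte sum was 6.39 FPKM in sh1089-1, 8.36 in sh1089-2 and 5.19 in shNC. The endothelial sum, nearly all ENG, was 48.9, 43.1 and 38.0 FPKM in the same order, and the mesenchymal sum 1218, 1508 and 971 FPKM. The part of these sums in the results was not tested. The samples are lines of 1 cell line and not a tissue. In their bulk RNA, fewer cells expressing a gene and less of its RNA per cell cannot be told apart.

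Because the 3 expressed ID genes had the libraries in the same order, the DNA just before their starts is shown, from RefSeq promoter windows on GRCh38.p14. The windows run from 250 bases before the start to 50 after it. The ID1 stretch at chr20:31605039-31605282 on the plus strand, which stops 7 bases before the RefSeq start so that it holds no annotated exon, carries in capitals each GTCT or its reverse complement AGAC, the letters that SMAD proteins recognise, and the TATA-like element, which abuts the last AGAC.

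ID1 upstream: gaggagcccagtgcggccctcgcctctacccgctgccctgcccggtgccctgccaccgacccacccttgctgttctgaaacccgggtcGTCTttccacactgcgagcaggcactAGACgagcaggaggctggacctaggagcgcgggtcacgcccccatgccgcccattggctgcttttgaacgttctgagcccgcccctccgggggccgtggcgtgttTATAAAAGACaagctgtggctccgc

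Short stretches around the TATA-like element compare the 4 ID genes, with TATAA or ATAAA, overlapping where both occur, in capitals. They lie at chr20:31605248-31605275 on the plus strand for ID1, chr2:8682016-8682043 on the plus strand for ID2, chr1:23559513-23559540 on the minus strand for ID3 and chr6:19837331-19837358 on the plus strand for ID4. For ID2 and ID3 other transcripts in GENCODE start further upstream, so only these short stretches are given.
ID1: gtggcgtgttTATAAAagacaagctgtg
ID2: gcgagtgcggATAAAagccgccccgccg
ID3: aggcaggctcTATAAgtgaccgccgcgg
ID4: cgcacggctcTATAAAtacagctgcgcg

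All 4 ID genes, ID4 included, had TATAA or ATAAA on the forward strand with its first base 40 to 20 bases before the start, which 6.23% of 35116 RefSeq promoter windows did. GTCT, searched on both strands, occurred 3 times in the ID1 window, 2 times in ID2, 2 times in ID3 and 1 time in ID4, and at least once in 84.0% of all windows. The palindrome GGCGCC, the core of a GC-rich BMP response element, was in none of the 4 windows and in 19.2% of all windows. The BMP-responsive enhancer described for ID1 lies further upstream than these windows reach.

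ID1 lies on chromosome 20 (31605283 to 31606515, plus strand, GRCh38) and was the most abundant member. It had 54.7 FPKM in sh1089-1 and 27.8 FPKM in sh1089-2, against 100.8 FPKM in shNC, on 643, 287 and 1330 reads. The 3 counting intervals did not overlap, with sh1089-2 lowest and shNC highest. ID1 was 1.84-fold lower (1.68 to 2.03) in sh1089-1 and 3.62-fold lower (3.19 to 4.13) in sh1089-2 than in shNC. In log2(FPKM + 1) the differences were −0.87 and −1.82, which placed ID1 238th and 57th from the lowest of 11198 genes. Its mean level lay above that of 94.1% of tested genes.

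ID3, the closest to ID1 in level, lies on chromosome 1 (23557918 to 23559794, minus strand). It had 37.0 FPKM in sh1089-1 and 20.2 FPKM in sh1089-2, against 85.0 FPKM in shNC, on 527, 253 and 1361 reads. The order of the libraries was that of ID1, and the counting intervals again stood apart. ID3 was 2.30-fold lower (2.08 to 2.55) in sh1089-1 and 4.20-fold lower (3.67 to 4.83) in sh1089-2. The differences of −1.18 and −2.02 in log2(FPKM + 1) ranked 104th and 46th from the lowest.

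ID2, which can also bind the retinoblastoma protein RB1, lies on chromosome 2 (8678845 to 8684453, plus strand). It had 7.64 FPKM in sh1089-1 and 3.57 FPKM in sh1089-2, against 10.3 FPKM in shNC, on 161, 66 and 244 reads. The order was the same, with sh1089-1 nearer to shNC than for ID1 and ID3. ID2 was 1.35-fold lower (1.10 to 1.66) in sh1089-1, which was not called, and 2.89-fold lower (2.19 to 3.85) in sh1089-2. The differences of −0.39 and −1.31 in log2(FPKM + 1) ranked 1524th and 105th from the lowest of 11198 genes. Exons of ID2 overlap those of ID2-AS1, an antisense gene, and it is not given whether counting used the strand, so the ID2 values may include antisense reads.

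ID4 (chromosome 6, 19837386 to 19840684) was listed at 0 in all 3 libraries. A count of 0 allows up to 0.134 FPKM in sh1089-1, 0.153 in sh1089-2 and 0.120 in shNC, taken as 3 reads over its annotated exon length. The 3 expressed ID genes summed to 99.3 FPKM in sh1089-1 and 51.6 FPKM in sh1089-2, against 196 FPKM in shNC. ID1 made up 55.1%, 53.9% and 51.4% of that sum, and ID3 37.2%, 39.2% and 43.3%. The ratio of ID1 to ID3 was thus 1.48 in sh1089-1, 1.38 in sh1089-2 and 1.19 in shNC.

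**Figure D1:**
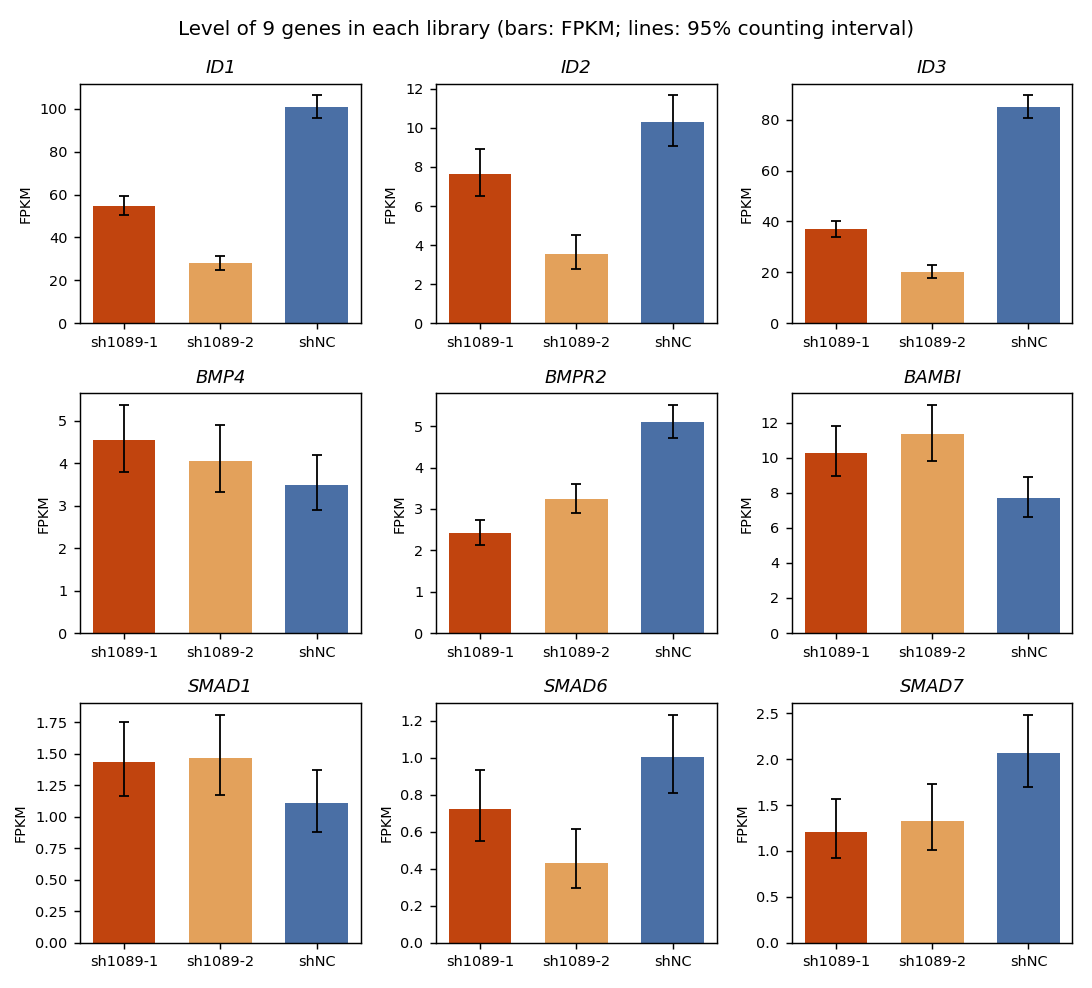
FPKM of 9 genes in the sh1089-1, sh1089-2 and shNC libraries (bars from 0, 1 library each), with 95% Poisson counting intervals as lines and a separate scale in each panel. ID1, ID2, ID3 and SMAD6 are lowest in sh1089-2, BMPR2 and SMAD7 are lowest in sh1089-1, and BMP4, BAMBI and SMAD1 are lowest in shNC; ID4, listed at 0, is not drawn.

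Of the ligands, BMP4 (chromosome 14, 53949736 to 53958761, minus strand) had 4.54 FPKM in sh1089-1 and 4.06 FPKM in sh1089-2, against 3.50 FPKM in shNC. Its reads were 134, 105 and 116, and its counting intervals overlapped in all 3 libraries. The ratio to shNC was 1.30 (1.004 to 1.68) in sh1089-1, just beyond counting error, and 1.16 (0.881 to 1.52) in sh1089-2. The differences of 0.30 and 0.17 in log2(FPKM + 1) were not called. The ligand with the highest level was BMP6, known as the iron-regulated ligand of the liver, with 9.04, 9.10 and 8.67 FPKM in sh1089-1, sh1089-2 and shNC. Of 11 listed ligand genes 4 were tested (BMP4, BMP5, BMP6 and BMP8B), and none was called in either hairpin. Of all tested genes, 5.83% were called lower and 5.27% higher in sh1089-1, and 5.63% and 4.89% in sh1089-2.

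BMPR2, the type II receptor dedicated to BMPs, lies on chromosome 2 (202376936 to 202567751, plus strand), far from ID2. It had 2.42 FPKM in sh1089-1 and 3.24 FPKM in sh1089-2, against 5.11 FPKM in shNC, on 274, 322 and 650 reads. Its counting intervals did not overlap, and the hairpin libraries stood in the opposite order to that of the ID genes. BMPR2 was 2.11-fold lower (1.83 to 2.44) in sh1089-1 and 1.58-fold lower (1.38 to 1.81) in sh1089-2. On the log2(FPKM + 1) scale the differences were −0.84 and −0.53. The second was short of the 1.5-fold mark that it passed with a pseudocount of 0.5 (−0.59) or 0.1 (−0.64). At those pseudocounts 7.02% and 9.03% of all tested genes were called lower in sh1089-2, beside 5.63% on the log2(FPKM + 1) scale.

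Among 8 tested receptor and coreceptor genes, BMPR2 and ACVR1 were called lower in sh1089-1, beside 5.83% of all tested genes, and none was called in sh1089-2, where 5.63% of all genes were called lower and 4.89% higher. ACVR1, the type I receptor ALK2, had 3.05 FPKM in sh1089-1 and 5.10 FPKM in sh1089-2, against 6.18 FPKM in shNC. Its low value was thus in sh1089-1, with sh1089-2 close to the control. BMPR1A, another type I receptor, had 2.09 and 1.45 FPKM in the hairpin libraries and 2.32 FPKM in shNC. This was the order of the ID genes. BMPR1A was 1.11-fold lower (0.929 to 1.33) in sh1089-1, within counting error, and 1.60-fold lower (1.30 to 1.98) in sh1089-2. ENG, endoglin, the endothelial coreceptor and the most abundant of the list, had 48.8 and 42.8 FPKM, against 37.5 FPKM in shNC. ACVRL1, the type I receptor ALK1 that endothelial cells use, was under the filter with 8 reads in sh1089-1, 15 in sh1089-2 and 28 in shNC.

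BAMBI encodes a receptor-like protein without a kinase that blocks BMP and TGF-beta receptors and lies on chromosome 10 (28677342 to 28682939, plus strand). It had 10.3 FPKM in sh1089-1 and 11.4 FPKM in sh1089-2, against 7.69 FPKM in shNC, on 210, 203 and 176 reads. Both hairpin libraries were above shNC, and they did not differ from each other beyond counting error (ratio 1.10, 0.904 to 1.34). The ratio to shNC was 1.34 (1.09 to 1.65) in sh1089-1 and 1.48 (1.20 to 1.82) in sh1089-2. Neither difference was called (0.38 and 0.51 in log2(FPKM + 1)). After rescaling to TPM, a scale on which every library has the same sum, the sh1089-2 difference came to 0.61 and passed 1.5-fold. Under TPM the share of all tested genes called higher in sh1089-2 also rose, from 4.89% to 7.93%.

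SMAD1, which carries the BMP signal, lies on chromosome 4 (145481194 to 145558079, plus strand). It had 1.44 FPKM in sh1089-1 and 1.47 FPKM in sh1089-2, against 1.11 FPKM in shNC, on 97, 87 and 84 reads. The ratios to shNC were 1.30 (0.958 to 1.76) and 1.33 (0.971 to 1.81), so no difference could be seen at these read numbers. Exons of the antisense gene SMAD1-AS1 overlap those of SMAD1, with the same limit as for ID2. Of the other signal-carrying SMADs, SMAD5 had 3.48 and 3.73 FPKM in the hairpin libraries, against 4.95 FPKM in shNC, and SMAD9 rested on 1, 0 and 2 reads. SMAD4, the common partner, had 1.97 and 1.60 FPKM, against 2.14 FPKM in shNC, also in the order of the ID genes. SMAD3, the most abundant SMAD and a carrier of TGF-beta signals, had 20.6 FPKM in sh1089-1 and 28.8 FPKM in sh1089-2, against 30.2 FPKM in shNC.

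The inhibitory SMADs were low in every library. SMAD6 (chromosome 15, 66702228 to 66782848, plus strand), the inhibitor most specific to BMP signals, had 0.724 FPKM in sh1089-1 and 0.433 FPKM in sh1089-2, against 1.01 FPKM in shNC. Its 59, 31 and 92 reads put the libraries in the order of the ID genes, but its mean was under the filter and it was not tested. SMAD6 was 1.39-fold lower (0.991 to 1.96) in sh1089-1, within counting error, and 2.32-fold lower (1.53 to 3.61) in sh1089-2. SMAD7 (chromosome 18, 48919853 to 48952052, minus strand), which restrains both BMP and TGF-beta receptors, had 1.21 FPKM in sh1089-1 and 1.33 FPKM in sh1089-2, against 2.06 FPKM in shNC, on 58, 56 and 111 reads. The hairpin libraries did not differ from each other beyond counting error (ratio 1.10, 0.748 to 1.62). SMAD7 was 1.70-fold lower (1.23 to 2.38) in sh1089-1 and 1.55-fold lower (1.11 to 2.18) in sh1089-2, but short of 1.5-fold on the log2(FPKM + 1) scale (−0.47 and −0.39), which it passed with a pseudocount of 0.1 (−0.72 and −0.60). No tested SMAD of 6 was called in either hairpin. Over all tested genes, 5.83% were called lower and 5.27% higher in sh1089-1, and 5.63% and 4.89% in sh1089-2.

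**Figure D2:**
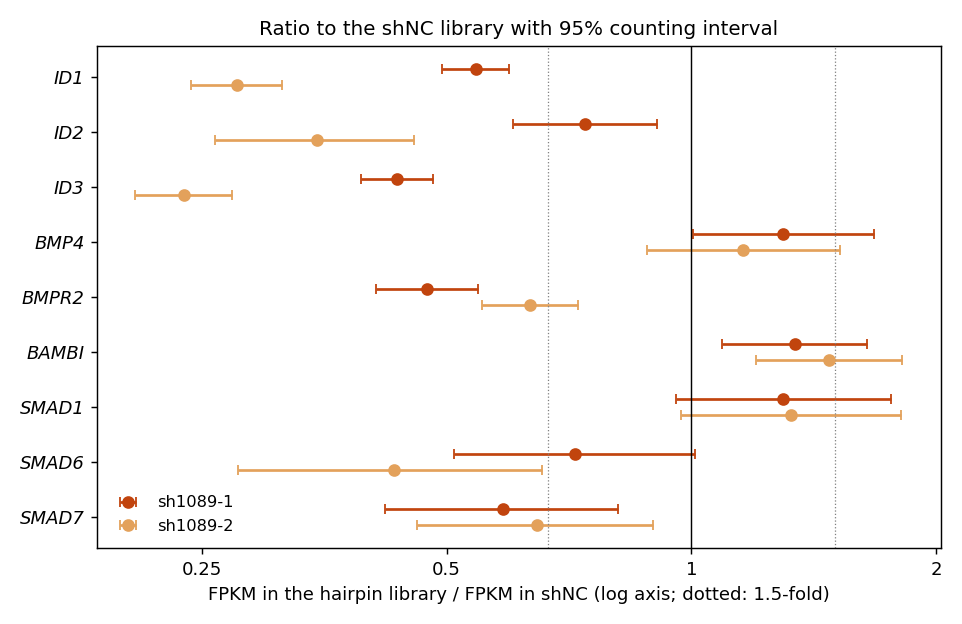
Ratio of FPKM in sh1089-1 and in sh1089-2 to FPKM in shNC for 9 genes (points; log axis), with 95% Clopper-Pearson counting intervals; dotted lines mark a plain 1.5-fold ratio. For ID1, ID2 and ID3 the sh1089-2 point lies left of the sh1089-1 point, and for BMPR2 it lies right of it.

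In counts of called members, ID1, ID3 and BMPR2 were lower in sh1089-1, 3 of 8, where 5.83% of all tested genes were called lower. ID1, ID2 and ID3 were lower in sh1089-2, again 3 of 8, where 5.63% of all tested genes were. No member was called higher in either, against 5.27% and 4.89% of all genes. At 2-fold in place of 1.5-fold, ID3 was called in sh1089-1, beside 1.51% of all genes, and ID1, ID2 and ID3 in sh1089-2, beside 1.61%. ID1 and ID3 were called lower in both hairpins at 1.5-fold, as were 2.79% of all genes, and the 2 comparisons share the shNC library. The median difference over all tested genes was −0.03 in sh1089-1 and −0.04 in sh1089-2. Since the members were picked on these contrasts, nothing about the pathway is read from these counts.

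The hairpin lines were also set against each other. ID1, ID2 and ID3 were all called lower in sh1089-2 than in sh1089-1, where 2.3% of tested genes were called lower and 2.47% higher, and no other member was called. ID1 was 1.97-fold lower (1.71 to 2.27), ID2 2.14-fold lower (1.60 to 2.90) and ID3 1.83-fold lower (1.57 to 2.13). The 3 intervals overlap, so the ID genes did not differ from one another in this comparison beyond counting error. Against shNC, the sh1089-1 intervals of all 3 ID genes stood apart from one another, those of ID1 and ID2 narrowly. SMAD6 was 1.67-fold lower (1.06 to 2.67) on few reads. BMPR2 went the other way, with a ratio of 1.34 (1.14 to 1.58). ID1 and ID3 stood at each step past 1.5-fold, lower in sh1089-1 than in shNC and lower in sh1089-2 than in sh1089-1, which 0.223% of tested genes did, and the steps share the sh1089-1 library.

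**Figure D3:**
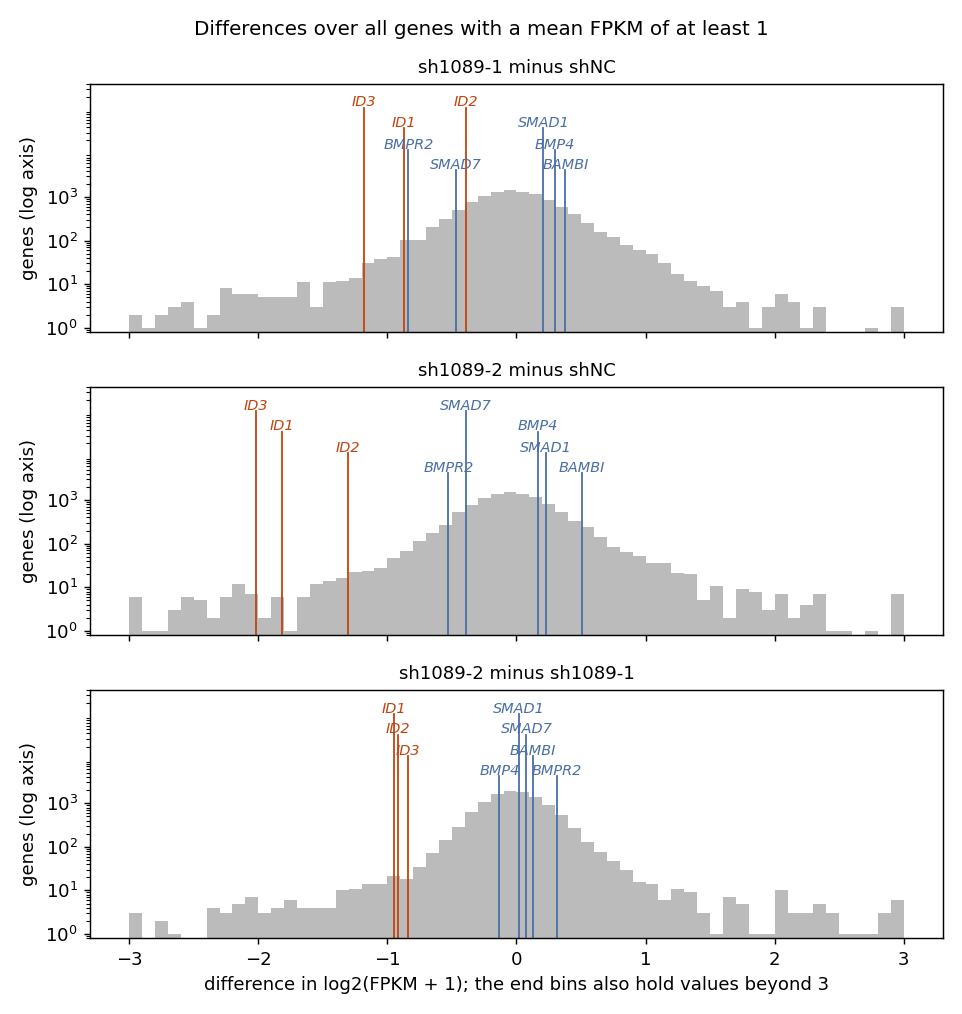
Histograms of the difference in log2(FPKM + 1) over 11198 genes for sh1089-1 minus shNC, sh1089-2 minus shNC and sh1089-2 minus sh1089-1 (gene counts on a log axis), with 8 members as lines. The ID genes lie at −0.87, −0.39 and −1.18 in the top panel and further left, at −1.82, −1.31 and −2.02, in the middle one (ID1, ID2, ID3), while the blue members stay between −0.84 and 0.51.

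The rest of the pathway was described from lists of ligands, receptors, antagonists, SMADs, SMAD regulators and targets. Leaving out the 10 members, 66 genes were listed and 40 were tested. SMURF2 and TGIF1 were called lower in both hairpins at 1.5-fold, 2 of 40 or 5.0% beside 2.79% of all genes, and none was called higher in both, beside 3.08%. The median differences of these 40 genes were −0.08 in sh1089-1 and −0.02 in sh1089-2, beside −0.03 and −0.04 over all genes.

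SMURF2, a ubiquitin ligase that marks SMADs and their receptors for destruction, had 26.2 FPKM in sh1089-1 and 24.5 FPKM in sh1089-2, against 42.0 FPKM in shNC. TGIF1, a homeodomain repressor that binds SMADs, had 4.72 and 5.59 FPKM, against 9.36 FPKM in shNC. For both genes the hairpin libraries lay close together and well under the control. CTDSP2, a phosphatase that acts on SMADs and the regulator with the highest mean over the libraries, had 41.4 and 47.1 FPKM, against 41.7 FPKM in shNC. The other 11 tested SMAD regulators were not called in either hairpin. Among all tested genes, 5.83% were called lower and 5.27% higher in sh1089-1, and 5.63% and 4.89% in sh1089-2.

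Of 9 tested antagonists and modulators, FSTL1 was called lower in sh1089-1, beside 5.83% of all genes. None was called in sh1089-2, beside 5.63% of all genes lower and 4.89% higher. FSTL1, a secreted follistatin-like glycoprotein and the gene of the list with the highest mean over the libraries, had 24.5 FPKM in sh1089-1 and 36.2 FPKM in sh1089-2, against 41.7 FPKM in shNC. NOG, noggin, which binds BMPs and is itself a BMP target, had 3.61 and 3.41 FPKM, against 3.36 FPKM in shNC, a range within counting error on 65, 54 and 68 reads. CHRDL1, a chordin-like BMP antagonist, had 27.6 and 34.0 FPKM, against 26.0 FPKM in shNC.

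None of the 8 other tested BMP targets had the order of the ID genes, lowest in sh1089-2 and highest in shNC. Under the filter, SMAD6 had it, with 0.724 FPKM in sh1089-1, 0.433 in sh1089-2 and 1.01 in shNC. ATOH8 and SMAD9 had it on very few reads. How many of all tested genes have this order was not worked out, so it is not read as particular to the ID genes. Of 11 tested targets, only ID1 and ID3 were called lower in both hairpins, beside 2.79% of all genes, and only MSX2, a homeobox gene, was called higher, in sh1089-2, beside 4.89% of all genes. MSX2 had 2.22 FPKM in sh1089-1 and 4.41 FPKM in sh1089-2, against 2.35 FPKM in shNC, on 47, 82 and 56 reads. MSX1 had 2.42 and 2.54 FPKM, against 2.12 FPKM in shNC, and PMEPA1, an inhibitor of TGF-beta signals, 1.68 and 1.82 FPKM, against 1.24 FPKM. HAMP, DLX3 and DLX5 were listed at 0 in all 3 libraries, and ATOH8, a BMP-induced gene, rested on 5, 0 and 9 reads.

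**Figure D4:**
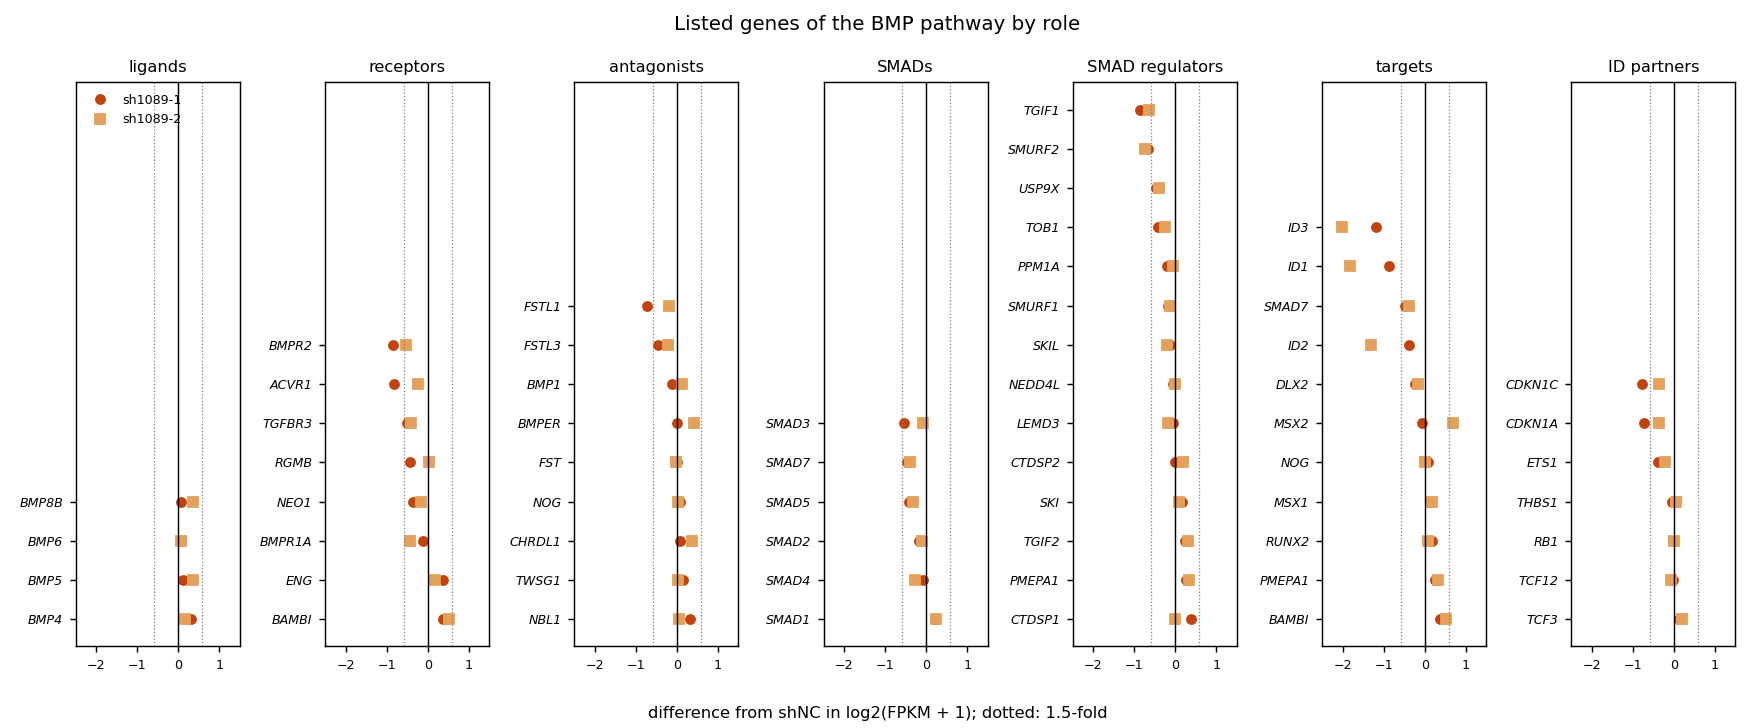
Difference from shNC in log2(FPKM + 1) for each tested gene of 7 role lists, sh1089-1 as circles and sh1089-2 as squares, with dotted lines at 1.5-fold. ID1 and ID3 are the only targets beyond the lower line in both libraries, and SMURF2 and TGIF1 the only SMAD regulators; the panel of antagonists also holds modulators, and BAMBI, SMAD7, NOG and PMEPA1 appear in 2 panels.

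Among the partners of ID proteins, the tested E protein genes TCF3 and TCF12 differed little from shNC. TCF3 had 22.1 and 23.2 FPKM, against 20.3 FPKM in shNC. Its ratios of 1.09 (1.01 to 1.18) and 1.14 (1.06 to 1.24) were small but beyond counting error. TCF12 had 4.27 and 4.08 FPKM, against 4.33 FPKM in shNC, within counting error. TCF4 rested on 5, 2 and 1 reads in sh1089-1, sh1089-2 and shNC. Of 7 tested genes in this list, CDKN1A and CDKN1C were called lower in sh1089-1, beside 5.83% of all genes, and none in sh1089-2, beside 5.63%. CDKN1A encodes p21, an inhibitor of cyclin-dependent kinases, and had 206 and 263 FPKM, against 339 FPKM in shNC. CDKN1C, the inhibitor p57, had 0.805 and 1.40 FPKM, against 2.11 FPKM in shNC, on 19, 29 and 56 reads. THBS1, thrombospondin, a gene that ID1 represses in mouse cells, had 208 and 223 FPKM, against 214 FPKM in shNC.

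The genes around each member were described next. Over the nearest tested protein-coding genes on the chromosome, 50 for each member and 35 for ID2, the median difference ranged from −0.19 to 0.07 in sh1089-1 and from −0.20 to 0.10 in sh1089-2. For ID1 it was 0.07 and 0.10, and its neighbour BCL2L1, an apoptosis inhibitor, had 73.8 and 70.4 FPKM, against 71.2 FPKM in shNC. For ID3 it was −0.04 and −0.02, while the next tested gene, the S-phase factor E2F2, was higher in both hairpin libraries, with 5.34 and 3.79 FPKM, against 1.64 FPKM in shNC. CDKN3, a cell cycle phosphatase gene next to BMP4, had 16.9 and 19.0 FPKM, against 9.16 FPKM in shNC. The tested genes on the 2 sides of ID2 differed in direction. RNF144A was higher in both hairpin libraries, with 2.20 and 2.73 FPKM, against 1.59 FPKM in shNC. KIDINS220, on the other side, was lower in both, as ID2 was, with 1.52 and 1.495 FPKM, against 2.28 FPKM in shNC.

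The genes most like the ID genes were sought by the smallest distance between pairs of differences from shNC, among 6110 protein-coding genes with a mean of at least 5 FPKM. The 3 libraries give only this pair of values per gene, and the pair shares shNC. Nearest to ID1 came HMOX1, heme oxygenase, at a distance of 0.298, then KRT7, a keratin, and CXCL8, a chemokine. HMOX1 had 97.4 FPKM in sh1089-1 and 63.6 FPKM in sh1089-2, against 185 FPKM in shNC. Nearest to ID2 came HSPA1A (0.219), a heat shock protein gene that shares reads with its copy HSPA1B, then SCG5 and LY6K. Nearest to ID3 came the histone gene H2BC5 (0.417), KRT7 and SPP1, osteopontin. The distance from ID1 to ID3 was 0.369, further than from ID1 to HMOX1, KRT7 (0.347) or CXCL8 (0.353). From ID3, by contrast, ID1 was nearer than H2BC5. ID2 lay 0.702 from ID1 and 1.06 from ID3, further than the genes named as nearest to it. None of the 6110 genes lay within 0.2 of ID1, ID2 or ID3.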

How the data were processed

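RNA sequencing of 3 SK-Hep-1 lines was analysed, 1 library per group. The authors deposited FPKM per Ensembl gene. FastQC, StringTie and GRCh38 are named, without versions, per the submitters' processing notes; the sources used here do not give the aligner, annotation release or strand setting. Symbols were found for 22375 of 22464 identifiers, and types, coordinates and exon lengths come from GENCODE release 29 on GRCh38 (22444 identifiers). Whole reads and library totals were recovered by finding, for each gene, the length nearest to GENCODE 29 at which the 3 values came to whole reads, allowing for their rounding. A length was found for 99.9% of 19204 genes and lay within 5% of GENCODE 29 for 93.5%. The step was tested on simulated data. Reads served for intervals, floors (3 reads) and 1 filter, and no count test was run. Intervals and floors cover counting error only, since each group has 1 library. Reads carry no molecular identifiers, so repeated copies of a fragment could not be told apart and the intervals may be too narrow.

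Differences are of log2(FPKM + 1) for genes averaging at least 1 FPKM, called at 1.5-fold. The members and lists were chosen with earlier results of these data known. Named from the lists were genes called in both hairpins, the most abundant of each list, and receptors or SMADs called in 1 hairpin; every other list gene named, and the neighbours, were chosen after their values were seen. Alternatives were pseudocounts of 0.1 and 0.5, no filter, a mean of at least 5 FPKM, protein-coding genes with at least 100 reads, TPM, median-of-ratios size factors and a 2-fold rule. Python 3.11.15, pandas 2.3.3, numpy 2.4.6, SciPy 1.17.1 and matplotlib 3.10.9 were used.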

Additional observations from a re-analysis of the deposited data

How the results depend on the processing

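Each comparison called 3 members. Of the alternatives run, 2 moved such counts by over 1.5 times, 3 counts in all. A pseudocount of 0.1 gave 5 in sh1089-2 against shNC, adding SMAD7 and BMPR2. It also raised the share of all tested genes called lower there from 5.63% to 9.03%. The 2-fold rule gave 1 in sh1089-1 against shNC, which was ID3, beside 1.51% of all genes lower. In sh1089-2 against sh1089-1 it gave 0, beside 0.884% of all genes lower and 0.839% higher. By construction it asks for a larger difference, and ID1, ID2 and ID3 all passed it in sh1089-2 against shNC, beside 1.61% lower. Of 96 values of single members recomputed under other pseudocounts or scalings, 90 kept their side of 1.5-fold, 6 came to pass it (SMAD7, BMPR2 and BAMBI) and 0 changed sign with a call. The medians of the BMP pathway list, members included, stayed within their 95% order-statistic intervals under each alternative. Those intervals take genes and not libraries as units, and the list holds members picked on these contrasts. No stability of the medians is therefore read from this. In sh1089-1 against shNC the median was −0.09 over 48 genes. At a mean of at least 5 FPKM it was −0.28 over 22 genes, beside 0.03 over all such genes. In sh1089-2 against shNC it was −0.04, and 0.02 under TPM, beside 0.02 over all genes; the cause was not tested. Scalings moved the median of all genes by under 0.1. With 1 library per group no library could be left out. No paired analysis was possible because each group has 1 library. Depth limits SMAD1, SMAD6 and SMAD7 most.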

Other observations

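ID1 and ID3 passed 1.5-fold at each step of their order. Of 11198 tested genes, 25 were at least 1.5-fold lower in sh1089-1 than in shNC and at least 1.5-fold lower in sh1089-2 than in sh1089-1. Of these, 7 were protein-coding, and 6 of the 7 had at least 100 reads: ID1, ID3, CXCL8, HMOX1, HSPA1A and SCG5. The rest were mostly small noncoding RNAs on a few reads each. This list was made after the values were seen, and its steps share the sh1089-1 library.

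CXCL8, a neutrophil chemokine, had 8.81 FPKM in sh1089-1 and 5.24 FPKM in sh1089-2, against 16.3 FPKM in shNC. HSPA1A, a stress-inducible chaperone whose near-identical copy HSPA1B makes its value uncertain, had 52.2 and 32.5 FPKM, against 79.8 FPKM in shNC. SCG5, which encodes the secretory protein 7B2, had 7.41 and 4.09 FPKM, against 11.9 FPKM in shNC. Among genes of small RNAs, MIR3189, whose hairpin is in an intron of GDF15, rested on 12, 6 and 30 reads in sh1089-1, sh1089-2 and shNC. The libraries are of enriched mRNA, so these reads are not taken as a level of the microRNA itself.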
